A study of Homo sapiens with 3 samples.

Results

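Imprinted genes are expressed mainly or wholly from the copy inherited from one parent, and 33 such genes were followed in HCT116, a human colorectal carcinoma cell line, after UHRF1 depletion. A gene was represented by every probe set that the array annotation gave to its symbol alone, with no filter on expression. This gave 90 probe sets for 29 of the 33 genes, out of 54613 probe sets and 19775 genes on the array. Of the 29, 17 are known as paternally expressed, 9 as maternally expressed, and 3 (GRB10, GNAS and BLCAP) as expressed from a parent that depends on the transcript or tissue. IGF2, H19 and ZIM2 had no probe set of their own, because the annotation gives theirs to a further gene as well, and SLC22A18 is not analysed here. Such shared probe sets are outside all counts of member probe sets and are given apart below.

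At an imprinted locus one parental copy of a control region carries DNA methylation that was set in the germ line and is copied after each cell division. UHRF1 recognises newly replicated, hemimethylated DNA and brings the maintenance methyltransferase DNMT1 to it. Methylation of most such control regions is maternal and silences the maternal copy of genes such as MEST, PEG10 or SNRPN. At the IGF2-H19 and DLK1-MEG3 loci it is paternal. Long noncoding RNAs, among them KCNQ1OT1, silence neighbouring genes on the copy from which they are made. Many imprinted genes act on fetal growth, placenta or brain, and several keep their parental bias in certain tissues or transcripts only, UBE3A in neurons being the best known case.

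The cells had received lentivirus coding for UHRF1 shRNA-2 (hairpin 2, 1 array), UHRF1 shRNA-5 (hairpin 5, 1 array) or a scrambled shRNA (control, 1 array), and all were kept 6 days under puromycin before RNA was taken. Each hairpin has 1 array, so the 2 hairpins served as the replicates of UHRF1 depletion, and the control has no replicate. Beyond the hairpin, the labels do not describe separate cultures. The p-values rest only on the spread between the 2 hairpin arrays, moderated over all probe sets, and that spread may be technical in part. The control array adds no spread. Values are log2 intensities after RMA, differences are hairpin minus control on that scale, and a difference of 1 is a 2-fold change. Both differences subtract the same control array, so an SD over the hairpins leaves out any variation of the control. RNA of both parental copies is measured together, so the array cannot tell from which copy a transcript came, and in bulk RNA fewer cells of a type and less RNA per cell cannot be told apart.

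UHRF1 itself read 6.20 with hairpin 2 and 6.67 with hairpin 5, against 8.54 on the control array, which was 5.09-fold and 3.68-fold lower (limma, unadjusted p = 0.00185, not called after adjustment). Correlation across all probe sets was 0.989 between hairpin 2 and the control, 0.989 between hairpin 5 and the control and 0.987 between the hairpins. The epithelial markers EPCAM, KRT8, KRT18 and KRT19 read between 9.93 and 12.48 on every array. CDH1 read 7.145 with hairpin 2 and 6.33 with hairpin 5, against 6.16 on the control array. CDX1 read between 4.53 and 4.66 and CDX2 between 4.46 and 4.89, while LGALS4 and VIL1 of the differentiated colon read between 2.45 and 3.13. The hairpin 2 array stood apart in interferon-inducible genes, of which 10 of 12 listed were at least 2-fold above the control (background 0.728% of genes), and 2 of 12 with hairpin 5 (background 0.152%). IFIT1 read 10.01 and 5.41 with hairpins 2 and 5 and 3.22 on the control array, and IFITM1 read 10.46 and 5.66 against 4.15. The part of this response in the differences with hairpin 2 given below was not tested.

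Promoter sequences are shown for 3 loci that recur in the values below. By the brightest probe set above the level of genes the cells should lack, KCNQ1, GRB10, PHLDA2 and INPP5F were the 4 members whose smaller difference over the hairpins was largest, and of these GRB10 had a usable window outside the gene's own span. NAP1L5 and the H19 locus had the probe sets furthest above the control with hairpin 2, and were chosen after their values were seen. Each line gives the 250 bases before the outermost annotated start in the gene's own direction (RefSeq, GRCh38.p14, all on the minus strand). Capitals mark CpG dinucleotides, the sites of DNA methylation. No methylation was measured on these arrays, and whether a window overlaps the methylated control region of its locus was not examined. The windows are chr7:50793454-50793703 for GRB10, chr4:88697830-88698079 for NAP1L5 and chr11:2001267-2001516 for H19.
GRB10: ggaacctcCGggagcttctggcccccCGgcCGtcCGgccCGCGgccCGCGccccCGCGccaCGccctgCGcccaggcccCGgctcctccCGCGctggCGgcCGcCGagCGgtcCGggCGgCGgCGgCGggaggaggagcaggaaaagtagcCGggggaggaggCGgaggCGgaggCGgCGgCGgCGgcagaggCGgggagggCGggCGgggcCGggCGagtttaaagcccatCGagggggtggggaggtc
NAP1L5: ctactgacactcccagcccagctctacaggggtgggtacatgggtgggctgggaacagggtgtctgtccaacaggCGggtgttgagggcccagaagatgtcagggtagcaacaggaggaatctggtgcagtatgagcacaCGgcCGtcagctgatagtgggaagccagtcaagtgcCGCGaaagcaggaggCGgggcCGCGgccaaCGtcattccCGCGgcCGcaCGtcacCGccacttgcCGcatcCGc
H19: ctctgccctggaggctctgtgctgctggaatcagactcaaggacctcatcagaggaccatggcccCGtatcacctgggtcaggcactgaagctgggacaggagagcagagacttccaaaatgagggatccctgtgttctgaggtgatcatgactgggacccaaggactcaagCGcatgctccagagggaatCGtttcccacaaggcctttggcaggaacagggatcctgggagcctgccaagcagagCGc

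The GRB10 window held 37 CpG dinucleotides, the NAP1L5 window 16 and the H19 window 4. RefSeq promoter windows lying outside the gene's own span were matched for 15 of the 29 genes. They held a median of 17 CpG dinucleotides (range 8 to 37), against 18 over 13550 genes of the array. The letters TGCCGC, the motif that the imprint-protecting zinc finger protein ZFP57 binds when it is methylated, stood on either strand in 6 of the 15 windows, GRB10 and NAP1L5 among them, or 40%, against 15.9% over all genes of the array. A match of 6 letters is a description of the window and not a binding site.

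Limma called 0 of the 90 member probe sets at an adjusted p of 0.05, and 0 of all 54613 (background 0%). At an unadjusted p under 0.05, limma listed 5 of the 90 member probe sets as lower, against 1.79% of all probe sets, and 1 of 90 as higher, against 1.14%. Those lower were a probe set each of KCNQ1, PHLDA2 and UBE3A and a pair for GRB10, and the one higher belonged to IGF2R. With 3 arrays, the smallest p that an exact permutation test could give is 0.333. With both hairpins, no member probe set was at least 2-fold higher (background 0.0586%) or 2-fold lower (background 0.103%). At 1.5-fold, 3 of 90 were lower with both (background 0.699%) and 1 of 90 was higher (background 0.41%).

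By direction alone, 32 of the 90 probe sets were higher with both hairpins (background 31.7%), 24 were lower (background 30.8%) and 34 were mixed. The median difference over the 90 was 0.02 with hairpin 2 and 0.04 with hairpin 5, against −0.01 and 0.01 over all probe sets. Many read low, as did much of the array. A level of 3.78 was the 95th percentile of the highest readings of 28 probe sets for genes of other organs, such as ALB, INS and MYH7, that colon cells should lack. Of the 90 member probe sets, 33 lay above it on every array, 6 on some arrays and 51 on none, against 16389, 2779 and 35445 of all 54613. Within the 51, 49 lay within 0.5 of the control with both hairpins (96.1%), as did 96.4% of all probe sets at that level. Within the 33, 24 did (72.7%, against 72.6% of all probe sets at that level).

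**Figure D1:**
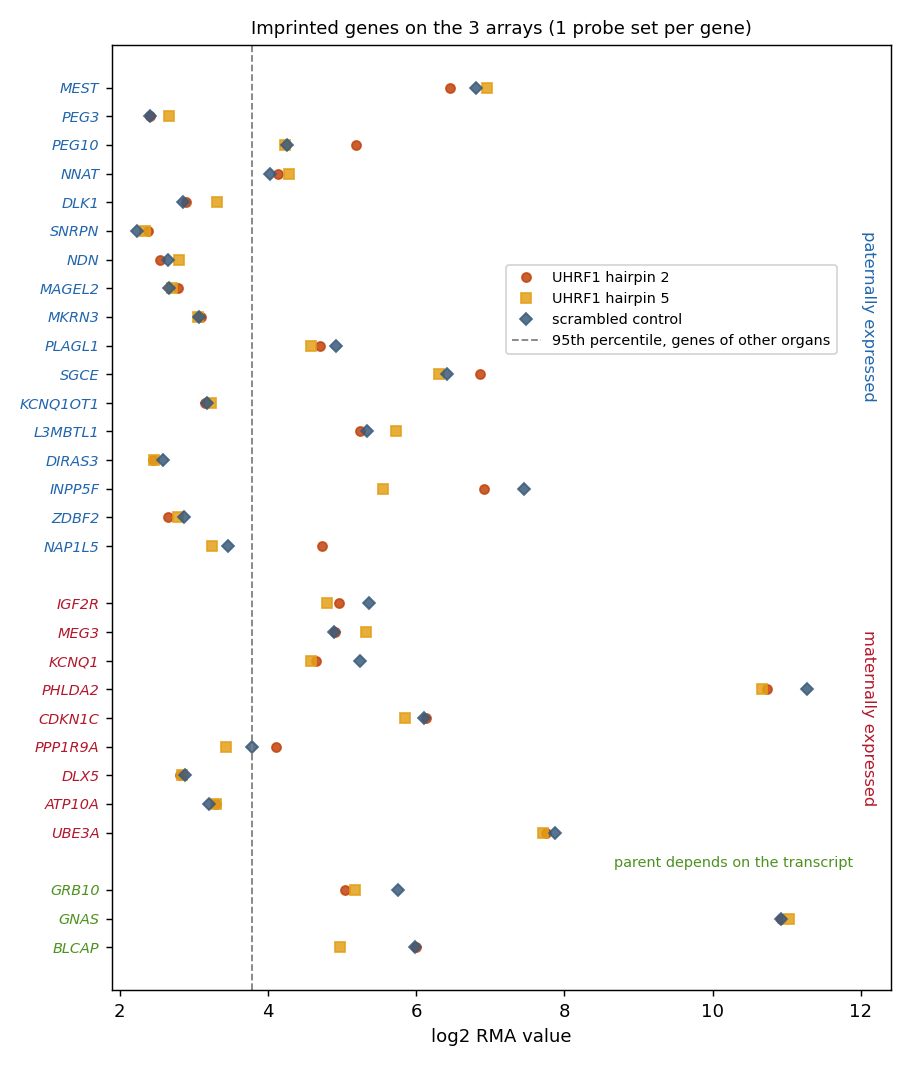
The log2 RMA value of each imprinted gene (rows) on the hairpin 2, hairpin 5 and control arrays, by the probe set with the highest mean, 1 array per point. The dashed line at 3.78 is the 95th percentile of probe sets for genes of other organs, and 16 of the 29 genes lie above it on all arrays. PHLDA2, KCNQ1, IGF2R and GRB10 have the control to the right of both hairpins, and INPP5F has hairpin 5 far to the left.

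The 17 paternally expressed genes were close to the control as a group. By the brightest probe set of each gene, 4 were higher with both hairpins, 4 lower and 9 mixed, where 30.5% of all genes were higher and 31% lower. They had a median difference of −0.01 (hairpin 2) and 0.05 (hairpin 5), against 0 and −0.002 over all genes, and single genes ranged between −1.89 and 1.28. Of the 17, 7 read above 3.78 on every array, 1 on some (NAP1L5) and 9 on none.

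Among those 7, INPP5F showed the lowest value against the control. INPP5F is a phosphoinositide phosphatase gene whose imprinted product is a shorter transcript from an internal promoter, known from brain. Its brightest probe set (203607_at) read 6.92 with hairpin 2 and 5.56 with hairpin 5, against 7.45 on the control array. Both hairpin arrays lay below the control, hairpin 5 much further. Hairpin 2 read 1.44-fold and hairpin 5 3.71-fold lower, a mean difference of −1.21 ± 0.96 (SD, n = 2 hairpins), with an unadjusted p of 0.137 in limma. It was one of 2 member probe sets at least 2-fold lower with hairpin 5, BLCAP being the other, where 0.683% of all probe sets were. Its other probe sets, both under 3.78 on every array, differed by −0.36 and 0.05, and by −0.33 and 0.12, so that hairpin 5 was not low in them.

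NAP1L5, an intronless gene for a nucleosome assembly protein relative, lay in the opposite position. Its brightest probe set (228063_s_at) read 4.74 with hairpin 2 and 3.24 with hairpin 5, against 3.46 on the control array. The second one (228062_at) read 3.75 and 2.58, against 2.75. Both were high on the hairpin 2 array only, and under 3.78 on the others, and the second stayed under 3.78 throughout. The differences were 1.28 and −0.21 for the first and 1.00 and −0.17 for the second, and the gap between the hairpins was 1.496 and 1.17. One member probe set, the first of NAP1L5, was at least 2-fold higher with hairpin 2, where 0.558% of all probe sets were. No member probe set was 2-fold lower with hairpin 2 (background 0.222%) or 2-fold higher with hairpin 5 (background 0.135%).

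PEG10 and SGCE, a pair transcribed away from each other from a shared imprinted promoter region, were also higher on the hairpin 2 array only. PEG10, a retrotransposon-derived gene needed for placenta, read 5.19 with hairpin 2 and 4.23 with hairpin 5, against 4.26 on the control array (212094_at). SGCE, the gene of epsilon-sarcoglycan, read 6.86 and 6.31, against 6.41. Hairpin 5 and the control were within 0.10 of each other in both genes. The differences were 0.93 and −0.03 for PEG10 and 0.45 and −0.10 for SGCE. The second PEG10 probe set stayed under 3.78, at 2.73 and 2.88 with hairpins 2 and 5 and 2.67 on the control array, and was not high with hairpin 2.

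MEST, PLAGL1 and NNAT, also above 3.78 on every array by the brightest probe set, differed little. MEST, a hydrolase-like gene of fetal mesoderm, read 6.46 and 6.95 with hairpins 2 and 5 and 6.80 on the control array. PLAGL1, a zinc finger gene linked to transient neonatal diabetes, read 4.71 and 4.58, against 4.92. NNAT, a small membrane protein gene of the developing brain, read 4.13 and 4.29, against 4.03. Hairpins lay on both sides of the control in MEST, below it in PLAGL1 and above it in NNAT, with no difference over 0.35. The further PLAGL1 probe sets lay at 0.35 and −0.03 and at 0.02 and −0.31, neither lower with both hairpins.

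L3MBTL1, a chromatin reader of methylated histone lysines, was split among its 6 probe sets. The brightest (216076_at) read 5.24 with hairpin 2 and 5.73 with hairpin 5, against 5.34 on the control array. The next (206823_at) was lower with both, at −0.40 and −0.34, and 3 others were higher with both, led by 210306_at at 0.42 and 0.26. Hence no direction can be given for this gene.

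Genes of the Prader-Willi region stayed low on all arrays. SNRPN, NDN, MAGEL2 and MKRN3, by their single probe sets, read between 2.35 and 3.10 with the hairpins and between 2.24 and 3.07 on the control array. Their differences ran between −0.11 and 0.15. NDN codes for necdin, a growth-restraining protein of neurons, MAGEL2 for a relative of it, MKRN3 for a brake on puberty, and SNRPN for a splicing protein. A further 11 probe sets that the annotation gives to SNRPN together with SNURF or with small nucleolar RNA genes of the region read between 2.28 and 3.37, and none of them was as far as 0.40 from the control.

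The other members read low on every array as well. DLK1, a Notch-related ligand of precursor cells, read 2.89 and 3.31 with hairpins 2 and 5 and 2.86 on the control array. PEG3, a zinc finger gene, read 2.40 and 2.67, against 2.41. DIRAS3, a small GTPase lost in many tumours, read 2.46 and 2.46, against 2.58. In DLK1 and PEG3 the hairpin 5 array was slightly high, and in DIRAS3 both hairpin arrays lay slightly below the control. ZDBF2 read 2.66 and 2.79, against 2.87, and the 5 probe sets of KCNQ1OT1 differed from the control by at most 0.17 in either direction. Values this low carry no detection call, and a transcript present at a small amount could not be told from none.

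Of the 9 maternally expressed genes, by the brightest probe set, 5 read below and 2 above the control on both hairpin arrays, and 2 were mixed (background 31% lower and 30.5% higher). They had a median difference of −0.08 (hairpin 2) and −0.25 (hairpin 5). Over all 39 of their probe sets the directions were even, with 13 higher, 13 lower and 13 mixed, and medians of −0.04 and 0.06.

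PHLDA2 and KCNQ1, both in the cluster silenced by KCNQ1OT1, were lower by about the same amount with each hairpin in their brightest probe sets only. PHLDA2, which restrains placental growth, read 10.73 with hairpin 2 and 10.67 with hairpin 5, against 11.27 on the control array (209803_s_at). The 2 hairpin arrays were within 0.06 of each other and both below the 1 control array, which both differences share. This was 1.46-fold and 1.52-fold lower, with a mean difference of −0.57 ± 0.04 (SD, n = 2 hairpins), a limma SE of 0.149 and an unadjusted p of 0.0219. Other PHLDA2 probe sets, at −0.28 and 0.16 and at 0.08 and 0.03, read under 3.78 and did not follow.

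KCNQ1, a potassium channel gene of heart and epithelia, read 4.65 with hairpin 2 and 4.59 with hairpin 5, against 5.24 on the control array (204487_s_at). It was 1.51-fold and 1.57-fold lower, a mean difference of −0.62 ± 0.04 (SD, n = 2 hairpins), with an unadjusted limma p of 0.0173. The second KCNQ1 probe set (211217_s_at) also lay above 3.78 and read 4.42 and 4.94, against 4.602. It was on both sides of the control, so the lower value rests on a single probe set. CDKN1C, the cell cycle inhibitor p57, lies between KCNQ1 and PHLDA2 in the same cluster. By its brightest probe set (213348_at), CDKN1C read 6.13 and 5.86, against 6.11. Its next 3 probe sets were higher with both hairpins, up to 0.45 and 0.41 for 216894_x_at, and these share the _x_at suffix that marks possible cross-hybridisation.

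The probe sets of IGF2R, the receptor that carries IGF2 and lysosomal enzymes to lysosomes, opposed each other. The brightest (201393_s_at) read 4.97 with hairpin 2 and 4.79 with hairpin 5, against 5.36 on the control array. The next (201392_s_at) read 4.08 and 4.30, against 3.45. Both hairpin arrays thus lay below the control in the first and above it in the second. The control reading of the second lay under 3.78, while the first was above that level on every array. The mean differences were −0.48 ± 0.12 and 0.75 ± 0.16 (SD, n = 2 hairpins), with unadjusted limma p of 0.0501 and 0.0169, and the mean over the 3 probe sets of the gene was 0.06. IGF2R imprinting is firm in mouse and variable between people.

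UBE3A, the ubiquitin ligase gene of Angelman syndrome, differed in size among its probe sets. Its brightest probe set (211285_s_at) read 7.75 with hairpin 2 and 7.71 with hairpin 5, against 7.87 on the control array. Only 213128_s_at stood clearly lower, at 5.55 and 5.39 against 6.15, which was 1.51-fold and 1.69-fold lower with an unadjusted limma p of 0.0176. The other 2 above 3.78 on every array, 213291_s_at and 211575_s_at, were higher with hairpin 2 and lower with hairpin 5. A reading at least 1.5-fold lower with both hairpins thus stands in 1 of the 4 probe sets above 3.78 on every array.

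MEG3, a maternally expressed long noncoding RNA with tumour-restraining activity, had 10 probe sets. The brightest (242246_x_at) read 4.91 with hairpin 2 and 5.32 with hairpin 5, against 4.90 on the control array. The next (210794_s_at) read 4.18 and 4.53, against 4.14. In both, the hairpin 5 array alone was high, by 0.42 and 0.39. The other 8 lay under 3.78 on every array, with 227390_at at 0.55 above the control with hairpin 5 and the rest within 0.30 of it.

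PPP1R9A, the gene of the actin-binding neurabin, read 4.11 with hairpin 2 and 3.44 with hairpin 5, against 3.78 on the control array, one hairpin on each side. ATP10A, a lipid flippase gene, read 3.30 and 3.30, against 3.21, while its probe set 214255_at was lower with both hairpins, at −0.04 and −0.27. DLX5, a homeobox gene of bone, read 2.81 and 2.84, against 2.89. The last 2 stayed at the level of absent transcripts, and their maternal bias has been reported for some tissues only.

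GRB10, an adaptor that dampens insulin and growth factor receptor signalling, is made in people from both copies in most tissues and from the paternal copy in brain, while in mouse most tissues use the maternal copy. Its brightest probe set (209409_at) read 5.04 with hairpin 2 and 5.17 with hairpin 5, against 5.76 on the control array. The next (210999_s_at) read 4.34 and 4.26, against 4.82. In both, the hairpin arrays lay together below the control. The first was 1.65-fold and 1.503-fold lower, and the second 1.39-fold and 1.47-fold lower. Mean differences were −0.65 ± 0.09 and −0.51 ± 0.06 (SD, n = 2 hairpins), with limma SE of 0.158 and 0.151 and unadjusted p of 0.0178 and 0.0318. GRB10 was the one member with a pair of probe sets above 3.78 on all arrays that were both lower at an unadjusted p under 0.05. Its other 2, at 0.08 and −0.18 and at −0.10 and 0.05, read lower in level and were mixed. The CpG-rich window printed above for GRB10 belongs to the outermost of 5 annotated starts, and the array does not tell which start was used.

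GNAS, the gene of the stimulatory G protein alpha subunit, has maternal, paternal and biallelic transcripts that share exons. Its brightest probe set (200780_x_at) read 10.93 with hairpin 2 and 11.04 with hairpin 5, against 10.92 on the control array. Over its 12 probe sets the differences ran between −0.34 and 0.31 with hairpin 2 and between −0.28 and 0.44 with hairpin 5, and 7 were higher with both hairpins and 4 lower. All 12 were within 0.5 of the control with both hairpins, which makes GNAS the member with the most probe sets and no difference above that size. The brightest carries the _x_at suffix. Without _x_at probe sets, the mean difference by the brightest one left was 0.171, against 0.063 with them.

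BLCAP is a small gene whose span holds NNAT and whose transcripts differ in parental origin in brain. It read 6.00 with hairpin 2 and 4.98 with hairpin 5, against 5.98 on the control array. Hairpin 2 was level with the control and hairpin 5 low. The difference was 0.02 and −1.003, a reading with hairpin 5 that was 2.004-fold lower than the control, and it rests on a single probe set. NNAT, which lies within the BLCAP span, did not follow BLCAP.

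**Figure D2:**
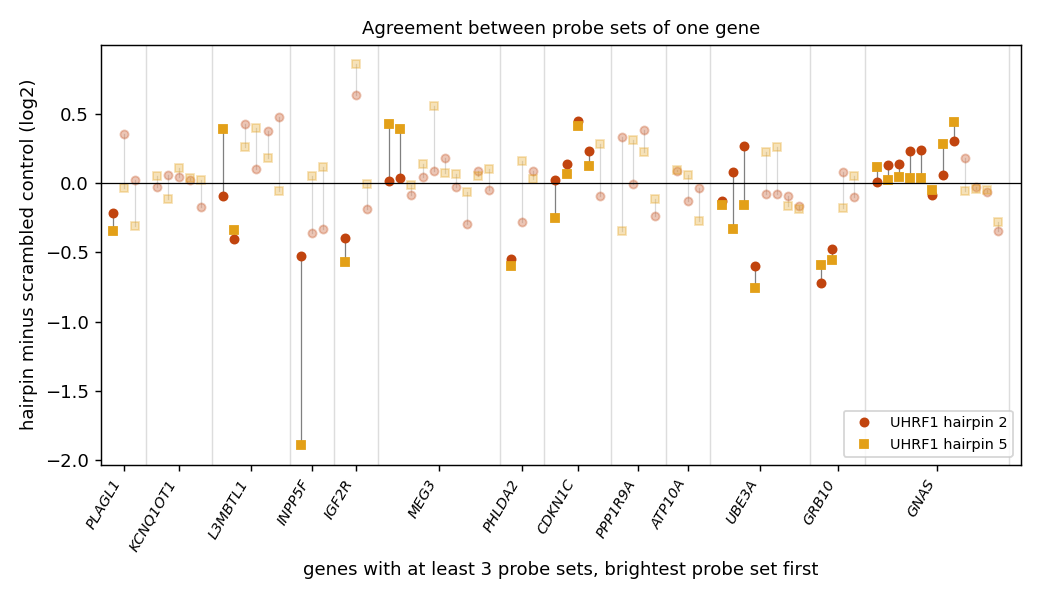
Each column is 1 probe set of a gene with at least 3 of them, with the difference from the control for hairpin 2 and hairpin 5 (log2, 1 array each), joined by a line. Faded points did not exceed a log2 value of 3.78 on all arrays. The first pair of GRB10 columns lies below 0 with both hairpins, and IGF2R has 1 probe set on either side.

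H19 and IGF2 were read only through probe sets shared with another gene, and these are given by probe set and not as gene values. Probe set 224646_x_at, annotated to both H19, a maternally expressed noncoding RNA that restrains growth, and MIR675, the microRNA made from it, read 6.47 with hairpin 2 and 3.16 with hairpin 5, against 3.82 on the control array. It was high on the hairpin 2 array only and low on the others. The difference was 2.65 with hairpin 2. The hairpin 5 reading lay under 3.78 and that of the control just above it, so no fold is given. The second shared probe set (224997_x_at) read 2.98 and 2.68, against 2.51, under 3.78 on every array. Its difference of 0.47 with hairpin 2 had the same direction at a fraction of the size. Both names end in _x_at, which marks possible cross-hybridisation. The H19 window printed above, with its 4 CpG dinucleotides, is the region just before that locus.

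Probe sets annotated to both IGF2, the fetal growth factor, and the INS-IGF2 readthrough were not higher. The brightest (202409_at) read 4.14 with hairpin 2 and 4.05 with hairpin 5, against 4.12 on the control array. The others, both under 3.78 on every array, differed by 0.02 and −0.14 (202410_x_at) and by −0.71 and 0.05 (210881_s_at). The hairpin arrays were level with the control in the first and hairpin 2 low in the last. The one probe set shared by the 2 members PEG3 and ZIM2 read 2.80 and 2.89, against 2.995.

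**Figure D3:**
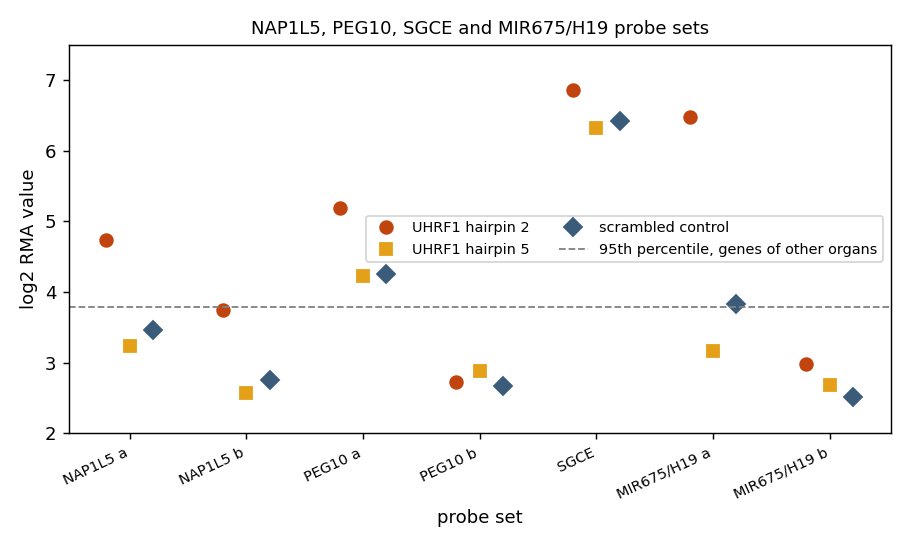
Log2 RMA values on the hairpin 2, hairpin 5 and control arrays (1 array per point) for NAP1L5 (a: 228063_s_at, b: 228062_at), PEG10 (a: 212094_at, b: 212092_at), SGCE and the probe sets shared by MIR675 and H19 (a: 224646_x_at, b: 224997_x_at), with a dashed line at 3.78. Hairpin 2 is highest in all but PEG10 b, and hairpin 5 lies within 0.70 of the control throughout.

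Set against each other, the hairpins differed at least 2-fold in 4 of the 90 member probe sets, all higher with hairpin 2 (background 1.14%): both of NAP1L5, the brightest of INPP5F and that of BLCAP. None was at least 2-fold lower with hairpin 2 than with hairpin 5 (background 0.0751%). Probe set 224646_x_at, shared by MIR675 and H19, is outside these counts. It was 3.31 higher (log2) with hairpin 2 than with hairpin 5. In NAP1L5 the gap came from a high hairpin 2 array and in INPP5F and BLCAP from a low hairpin 5 array. The NAP1L5 readings were under 3.78 on at least the hairpin 5 array, and among the 33 member probe sets above that level on every array the count was 2 (background 2.77%). With 1 array per hairpin these gaps have no replicate check, and hairpin, culture and array cannot be told apart.

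**Figure D4:**
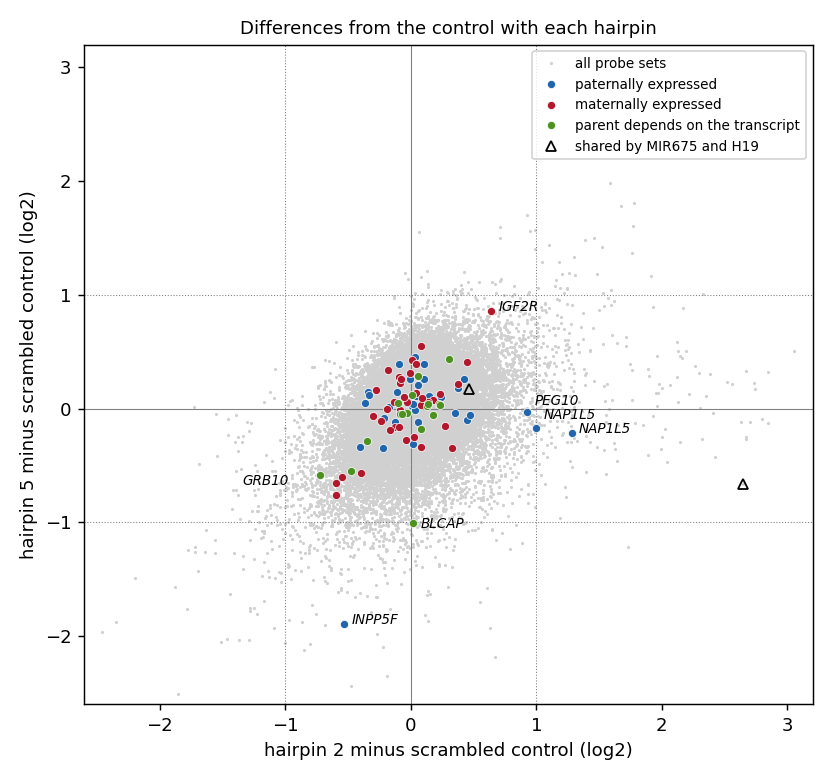
Difference from the control with hairpin 2 (x axis) and hairpin 5 (y axis), log2, for all probe sets (grey) and for those of imprinted genes by parental class. Dotted lines mark 2-fold, and 18 probe sets lie outside the plotted range. No imprinted gene lies past 2-fold in the same direction on both axes, and both axes share the 1 control array.

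Other imprinted genes outside the 33 differed by −0.49 to 0.41 with hairpin 2 and by −0.66 to 0.31 with hairpin 5. Of 40 listed, 28 had a probe set, and by the brightest one 6 were higher with both hairpins and 11 lower (background 30.5% and 31%). They had a median difference of −0.07 (hairpin 2) and 0.01 (hairpin 5), and none reached 0.05 in limma even unadjusted. The lowest by the smaller of the differences were OSBPL5 (−0.47 and −0.22), an oxysterol-binding protein gene lying near PHLDA2, the zinc finger gene ZNF264 (−0.49 and −0.18) and the antisense RNA GNAS-AS1 (−0.16 and −0.20). The highest were HM13 (0.21 and 0.17), LRRTM1 (0.08 and 0.11) and TP73 (0.06 and 0.25). Of the 28 genes, 17 read under 3.78 on every array, GNAS-AS1, LRRTM1 and TP73 among them.

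Of 28 listed factors that set, protect or remove imprints, UHRF1 among them, 25 had a probe set. By the brightest one, 6 were higher and 8, the target UHRF1 included, lower with both hairpins (background 30.5% and 31%), with medians of 0.00 and −0.02. Of the 25, 20 lay within 0.5 of the control with both hairpins (80%, against 82.4% of all genes). CTCF, the insulator protein that binds the unmethylated IGF2-H19 control region, read 6.88 with hairpin 2 and 6.74 with hairpin 5, against 6.38 on the control array. NLRP7, mutated in familial molar pregnancy, differed by 0.39 and 0.29 but read under 3.78 on every array. ZNF445, a zinc finger protein that protects imprints, differed by 0.33 and 0.26. By the smaller of the differences, the lowest besides UHRF1 were TET1 (−0.40 and −0.41), a DNA demethylase gene under 3.78 on every array, and TET3 (−0.15 and −0.56). Named after their values were seen, the UHRF1 relative UHRF2 differed by −0.08 and −0.92 and DNMT1 by 0.12 and −0.31. ZFP57, named likewise, differed by −0.10 and 0.04 and read under 3.78 on every array. UHRF2 was thus low with hairpin 5 and near the control with hairpin 2.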

How the data were processed

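RNA of the 3 cell populations was hybridised as biotin-labelled cRNA to 1 Affymetrix array each. The deposited values are log2 intensities, computed by the authors with RMA in Affymetrix Expression Console per the submitters' processing notes. Versions, settings and genome build are not given in the sources used here, and the log base was taken from the range of values, 1.95 to 14.06 on the control array. No detection calls come with them, and the number of arrays limits the precision.

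Probe sets were named by the platform annotation: 41091 of 54613 had 1 gene, 1801 several and 11721 none. Gene identifiers matched a RefSeq table (GRCh38.p14) for 41037 and changed 0 symbols. All 54613 probe sets, unfiltered, were fitted with limma 3.58.1 under R 4.3.3 (lmFit, then eBayes), both hairpins against the control, two-sided, with Benjamini-Hochberg adjustment. The fit has 1 residual degree of freedom, 3.63 after moderation, and takes the single control to vary as the hairpins do. It was tested on simulated data with large changes and the same spread for every probe set only, which says nothing of its power for smaller changes or uneven spread. A gene stood for its probe set with the highest mean.

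Parental classes follow general knowledge. The members and lists were chosen with earlier results of these data known. All members with a probe set were named. Other probe sets were given singly at 0.8 from the control. Those that opposed the brightest were also given singly, except in MEG3 and GNAS, where only the range covers them. From further lists, up to 3 genes per direction were named. Promoters followed the smaller difference of the hairpins by brightest probe set (up to 4 members). The H19 and NAP1L5 promoters and some probe set and factor examples fall outside these rules and were chosen after their values were seen. The alternatives tried were an expression filter, no _x_at probe sets, median centring, cyclic loess, variance priors, thresholds, other gene summaries and each hairpin left out.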

Additional observations from a re-analysis of the deposited data

Results flagged for a closer look

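Probe set 224646_x_at, which the annotation gives to MIR675 as well as H19, was counted for no member under the rule used here. It lay 2.65 above the control on the log2 scale with hairpin 2 and 0.66 below it with hairpin 5 (6.47 and 3.16, against 3.82). It drew attention as a signal in data outside the member probe sets. The hairpin 5 reading is under the level of 3.78. The difference between the hairpins, 3.31, was not tested, since each has 1 array.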

How the results depend on the processing

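No member probe set passed limma with any of the alternatives run: the filter at the 40th percentile, no _x_at probe sets, median centring, cyclic loess, an intensity trend, a robust prior or an adjusted p of 0.1. At an unadjusted p under 0.05 they listed between 3 and 8 of the members. Leaving out a hairpin leaves limma no residual degree of freedom, so it gave no test there. The count at least 2-fold from the control with both hairpins was 0 and became 4 at 1.5-fold, and it ran between 1 and 2 when either hairpin was left out and the other counted alone. The median of the paternally expressed genes (0.08 over the mean of the hairpins) was 0.15 with the expression filter, which tests fewer genes, and ran between −0.007 and 0.045 with 1 hairpin left out. That of the maternally expressed genes (−0.11) was 0.0235 over all probe sets, the cause of which was not tested, and ran between −0.25 and −0.079 with 1 hairpin left out. When all probe sets of a gene were averaged, the sign changed in 4 of 29 genes (IGF2R, CDKN1C, PPP1R9A and ATP10A), and with cyclic loess in 2 (MKRN3 and KCNQ1OT1), all of them uncalled. With hairpin 2 left out the sign changed in 5 genes (MEST, PEG10, MKRN3, SGCE and NAP1L5) and with hairpin 5 left out in 7 (PEG3, NDN, KCNQ1OT1, L3MBTL1, CDKN1C, PPP1R9A and BLCAP). No paired analysis was possible because the control has 1 array, so the groups share fewer than 2 replicate numbers, and the labels pair no arrays.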
